A study of Mus musculus with 4 samples.

Results

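The actin cytoskeleton and Arp2/3 genes are 40 genes that build, branch, cap, crosslink and take apart actin filaments. They were listed by gene symbol and not by a measured value, and all 40 were found among the 28692 genes of the count tables. The tables came from 4 libraries of single cells sorted from mouse brain, made with the 10x Genomics 3′ version 2 kit, which counts RNA molecules by unique molecular identifiers (UMIs). Per the labels, every mouse was a male C57BL/6J at P90 (90 days) that had received PBS by tail vein 24 hours before sacrifice, and cortex and hippocampus were taken apart by cold Dounce homogenisation, which is mechanical and uses no enzyme. Another interval after the injection is given in the study's methods, so the hours are uncertain. They describe sorting of live CD45+/CD11b+ myeloid cells, while the study's sample sheet also lists CX3CR1. All libraries belong to 1 group with no untreated or enzyme-digested samples, and the labels do not say whether transcription and translation inhibitors were used. The libraries are called replicates 1 to 4 in the order of the record, and spreads and tests measure the differences between these 4 samples. The study's methods report that the sorter clogged on the final animal, whose cells were sorted again after extra time at room temperature. The paper finds its ex vivo activation signature almost only in that sample. If the record keeps the order of sorting, that animal is replicate 4. The libraries were therefore not all handled alike, and the part of this handling in the results was not tested.

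Actin is present in a cell as monomers and as filaments, and motile cells such as microglia, the resident macrophages of the brain, keep a large pool of monomers for rapid assembly. Nucleation-promoting factors of the WASP and WAVE families switch on the Arp2/3 complex, which starts a new filament as a branch on an old one and so drives the ruffles and processes with which microglia survey tissue and take up material. Thymosin beta 4 and profilin hold monomers, cofilin takes old filaments apart, capping protein ends growth, Ena/VASP proteins extend filaments, and crosslinkers, myosin and membrane linkers turn the network into force and shape.

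Of 13138 barcodes, 13002 cells were kept, with 400 genes or more and no more than 10% of their UMIs from mitochondrial genes. Replicates 1 to 4 held 3576, 3692, 2576 and 3158 cells with 7055985, 11267195, 5841671 and 9000804 UMIs, so replicates 2 and 4 were the most precisely measured. Between 6 and 21 barcodes were shared by each of the 6 pairs of libraries. The 8 microglial markers used (P2ry12, Tmem119, Cx3cr1 and others) summed to 25790 ± 382 CPM (UMI counts scaled to the library total, SD, n = 4), the 4 neutrophil markers were at 0 in every library, and the T and NK cell, neuron and mural markers summed to no more than 1.78 CPM in any library. The 7 macrophage and 6 monocyte markers summed to 47.6 ± 28.7 and 35.7 ± 17.9 CPM, the oligodendrocyte markers to 50.3 to 59.3 CPM, the endothelial markers to 21.4 to 28.4 CPM and the astrocyte markers to 0.856 to 6.33 CPM. The 4 MHC class II genes ranged widely, from 224 to 1196 CPM.

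A serum response factor site is a known feature of actin gene promoters, so the members' promoters were searched for the CArG box that this factor binds. The sequences are RefSeq windows (build GRCm38.p6) of 250 bases before to 50 after each annotated start, and 36 of the 40 members had at least 1. Actb, Coro1b, Cyfip1 and Nckap1l had no matched window. A CArG box stood in 4 of the 47 member windows (8.51%), against 535 of all 32851 windows (1.63%), on either strand. The 4 boxes are shown in capitals, 5′ to 3′ on the strand of the gene with up to 10 bases on each side, because they belong to members with different roles and levels.
Actg1, chr11:120348566-120348595, minus strand: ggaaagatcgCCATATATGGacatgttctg
Myl6, chr10:128493040-128493069, minus strand: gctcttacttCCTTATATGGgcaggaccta
Vcl, chr14:20929161-20929190, plus strand: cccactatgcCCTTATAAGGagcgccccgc
Arpc4, chr6:113377863-113377882, plus strand: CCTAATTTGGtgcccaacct
The boxes began 90, 50, 227 and 250 bases before the RefSeq start of their window in Actg1, Myl6, Vcl and Arpc4. For Myl6 this start lies inside the gene (chr10:128490860-128494145, minus strand). Its window nearer the 5′ end of the gene (chr10:128493837-128494136) had no box. Their genes were far apart in level, with means of 796 CPM for Actg1 (gamma actin), 339 CPM for Myl6 (a myosin light chain), 387 CPM for Arpc4 (an Arp2/3 subunit) and 4.07 CPM for Vcl (vinculin, an adhesion protein). A match describes these letters only and is not a measured binding site.

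The first question was how much of the microglial RNA these genes make up and whether the 4 mice were alike. Together the 40 members took 28580, 31040, 29873 and 31206 CPM in replicates 1 to 4, a mean of 30175 ± 1217 CPM (SD, n = 4), or 3.02% of all UMIs. No library stood apart by Dixon's range test, which divides the gap between the farthest value and its neighbour by the whole range (ratio 0.492, below the two-sided 95% critical value for 4 values). A level is a share of the RNA counted, and fewer cells with the gene cannot be told apart from less RNA per cell in these sums. Because each 3′ end is counted once whatever the length of the RNA, CPM was not divided by gene length. Whether all genes were captured and counted equally well was not tested, so shares and ratios between genes are of counted RNA only.

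The members were very unequal. The 5 monomer-binding and turnover genes took 52.0% of the members' UMIs and the 2 actins 16.7%, followed by the 8 Arp2/3 subunits with 9.38%, the coronins, bundlers and crosslinkers with 7.95%, the capping and severing proteins with 5.21% and the 7 WASP and WAVE genes with 4.44%. The elongation factors (1.78%), myosin (1.31%) and membrane linkers (1.27%) made up the rest. The summed Arp2/3 subunits were close between libraries (2754, 2812, 2840 and 2910 CPM) and so were the WASP and WAVE genes (1334, 1305, 1362 and 1359 CPM). The actin sum had the widest spread of the roles relative to its level, with 4370, 4725, 4935 and 6098 CPM.

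**Figure D1:**
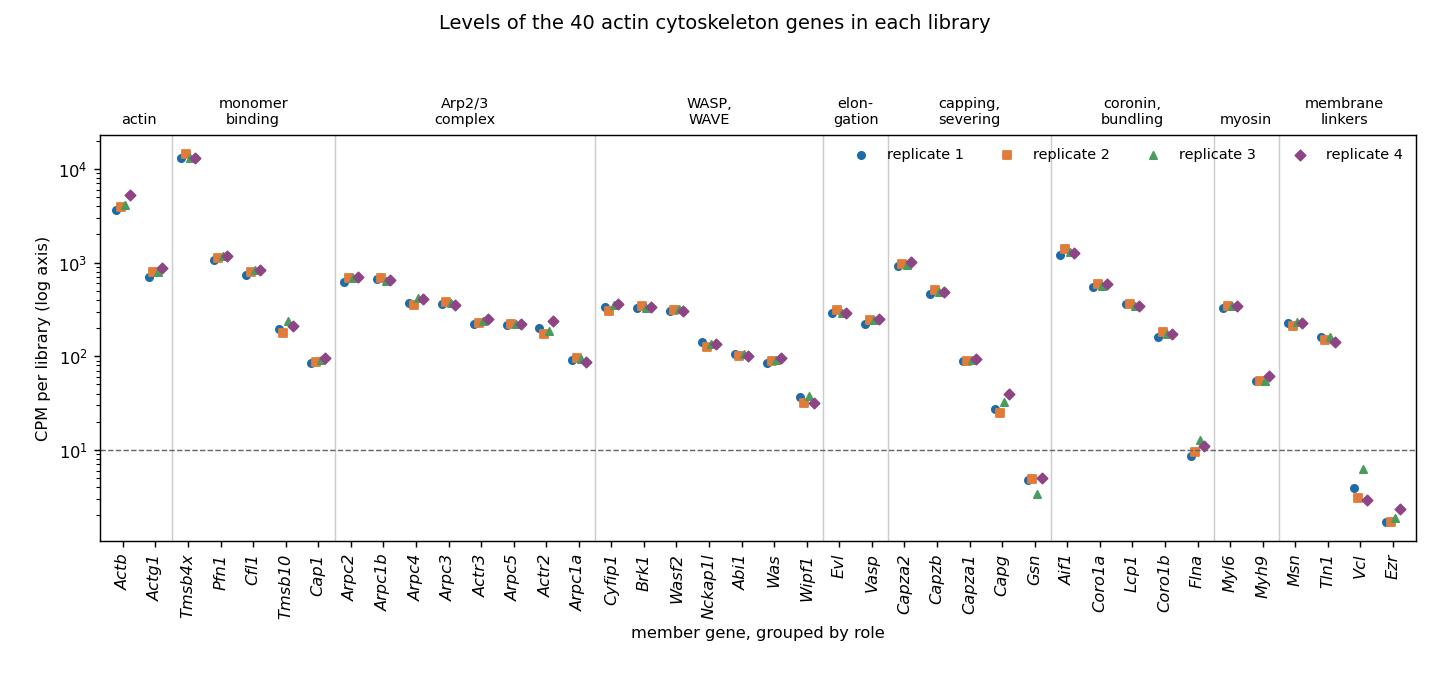
CPM of each of the 40 members (log axis) in the 4 libraries, 1 symbol per library, grouped by role and sorted by level, with a dashed line at 10 CPM. Tmsb4x and Actb lie above all other members in every library, and Gsn, Vcl and Ezr lie below the line.

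Tmsb4x (ENSMUSG00000049775, chrX:167207093-167209315, GRCm38), which encodes the monomer-holding thymosin beta 4, was the most abundant member and the 4th most abundant gene of all. Its level was 12956, 14558, 13121 and 13179 CPM in replicates 1 to 4, so replicate 2 was the high one and the other 3 lay close together. Tmsb10, the second thymosin of the list (ENSMUSG00000079523, chr6:72957347-72958748), had 196, 177, 235 and 211 CPM, and the ratio of Tmsb4x to Tmsb10 was 66.7 ± 11.2 (SD, n = 4). Replicate 2 was therefore highest in one thymosin and lowest in the other.

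Actb, the cytoplasmic beta actin (ENSMUSG00000029580, chr5:142903115-142906754), had 3675, 3925, 4132 and 5212 CPM. Replicate 4 was the high library, 1.42 times replicate 1, but the range test did not set it apart (ratio 0.664). Actg1, the gamma actin (ENSMUSG00000062825, chr11:120345690-120348542), followed the same order at the ends with 696, 800, 803 and 886 CPM, and Actb exceeded it by 5.30 ± 0.416 fold (SD, n = 4). Both actins have processed pseudogenes, as do Cfl1, Pfn1, Tmsb10 and Myl6. How reads that fit several places equally were counted was not tested, so the levels of these genes are uncertain in size.

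Among the other monomer-binding genes, Pfn1 (profilin, which feeds monomers to growing ends) had 1060, 1124, 1185 and 1175 CPM and Cfl1 (cofilin) had 736, 802, 843 and 829 CPM. Replicate 1 was the low library for both. Cap1, which recycles monomers from cofilin, was far lower with a mean of 89.9 ± 5.21 CPM. Aif1, the calcium-binding bundling protein known as Iba1 and used to stain microglia, had 1219, 1387, 1288 and 1269 CPM.

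The Arp2/3 complex has 7 kinds of subunit, and the 8 subunit genes on the list ranged from 672 to 91.7 CPM. Arpc2 and Arpc1b were highest, with 623, 685, 677 and 703 CPM for Arpc2 and 675, 682, 634 and 658 CPM for Arpc1b, and they did not differ beyond their spread. Arpc4 (387 ± 33.2 CPM) and Arpc3 (365 ± 9.56 CPM) also overlapped. The actin-related proteins that form the start of the branch, Actr3 and Actr2, had 234 ± 12.1 and 199 ± 26.7 CPM. Arpc5 had 218 ± 3.48 CPM, the smallest SD of log2(CPM + 1) of the 37 members tested between libraries (0.023). Counting error alone gives 0.035 there, so its rank as the steadiest member has no meaning. Arpc1a, the alternative to Arpc1b, had 91.7 ± 3.55 CPM, and Arpc1b exceeded it by 7.23 ± 0.305 fold.

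Other pairs of related genes were unequal too, and some were close. Capza2 exceeded Capza1, the other alpha subunit of capping protein, by 10.6 ± 0.342 fold (924, 964, 939 and 1023 CPM against 89.3 to 93.4 CPM), and the single beta subunit gene Capzb had 484 ± 20.3 CPM. Coro1a, the coronin of blood cells, exceeded Coro1b by 3.33 ± 0.0807 fold. Evl and Vasp, which extend filaments, were close to each other with a ratio of 1.23 ± 0.0699, and Arpc5 exceeded its relative Arpc5l (no member) by 1.98 ± 0.101 fold.

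Of the WAVE complex, 1 form of several subunits was barely detected. Cyfip1, Brk1 and Wasf2 had 337 ± 24.9, 334 ± 10.1 and 308 ± 7.13 CPM, and their values overlapped between Cyfip1 and Brk1. Nckap1l, known as HEM1, had 134 ± 7.27 CPM and its relative Nckap1 only 13 UMIs in all libraries. Wasf1 had 1 UMI and Cyfip2 had 12. The Abi subunit Abi1 had 103 ± 2.69 CPM, and its relative Abi3, which is no member and was looked up after the values were seen, had 709 CPM, more than any WAVE gene of the list. Was, the WASP protein of blood cells, had 90.1 ± 5.01 CPM and Wipf1, a binding partner of WASP, had 34.2 ± 3.34 CPM.

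The remaining members were the bundler Lcp1 (351 ± 12.7 CPM), the myosin genes Myl6 (339 ± 8.69 CPM) and Myh9 (56.7 ± 3.33 CPM), and the linkers Msn (moesin, 224 ± 10.5 CPM) and Tln1 (talin, 154 ± 8.78 CPM). The filament-capping protein Capg had 27.1, 24.8, 32.2 and 39.1 CPM and the crosslinker Flna (filamin) had 8.65, 9.41, 12.7 and 10.9 CPM. Gsn (gelsolin, 4.53 CPM), Vcl (4.07 CPM) and Ezr (ezrin, 1.90 CPM) fell under a mean of 10 CPM and were left out of the tests between libraries, so 37 of 40 members were tested. Moesin exceeded its relative radixin (Rdx, no member) by 1.44 ± 0.169 fold, while ezrin had only 63 UMIs in all.

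The members differed little between the libraries. The SD of log2(CPM + 1) over the 4 libraries had a median of 0.075 over the 37 members and 0.11 over all 7656 genes that averaged 10 CPM or more, but the members are also more abundant than most genes. Among genes of 100 CPM or more the medians were 0.074 over 29 members and 0.079 over 1563 genes. The widest member was Capg with an SD of 0.28, followed by Flna (0.22), Actb (0.22), Actr2 (0.19) and Tmsb10 (0.17). In Flna counting error alone gives an SD of 0.16, and in Actb it gives 0.0080.

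One library stood apart in 3 of the 37 members tested, Tmsb4x, Evl and Myh9, against 4.62% of all 7656 genes. Tmsb4x was high in replicate 2 (ratio 0.854). Evl had 291, 311, 290 and 292 CPM with replicate 2 high (ratio 0.872), and Myh9 had 54.8, 55.0, 55.1 and 61.7 CPM with replicate 4 high (ratio 0.957). The exact 95% counting intervals of Evl and Myh9 in these libraries (301 to 322 and 56.6 to 67.0 CPM) overlapped those of the other libraries, whereas that of Tmsb4x (14490 to 14630 CPM) did not. The calls of Evl and Myh9 rested on the scaling, since of the 3 genes Tmsb4x alone stayed apart when edgeR's TMM factors or DESeq2's size factors replaced the library totals. In cells with at least 1000 genes none of the 3 stayed apart. Arpc5 was apart under both factors and Cfl1 under TMM. The counting intervals of Arpc5 under library totals overlapped between all libraries.

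Replicate 1 was the lowest library in 20 of the 37 members (54.1%), while it was lowest in 28.6% of all genes tested, and it was highest in 2 members, Nckap1l and Abi1 (5.41%, against 21.6% of all genes). Replicates 2 and 4 were each highest in 13 members (35.1%), against 20.1% of all genes for replicate 2 and 31.8% for replicate 4. The share of replicate 4 was thus near that of all genes. The order depended on the scaling and the cells used. Replicate 1 was lowest in 14 members with TMM factors (24.7% of all genes) and 15 with DESeq2 size factors (26% of all genes). In cells with at least 1000 genes it was lowest in 14 members (29.4% of all genes). With TMM factors replicates 2 and 4 were highest in 16 and 11 members, against 28.7% and 25.5% of all genes. Without Tmsb4x and Actb the members still summed to 11949, 12557, 12620 and 12815 CPM, with replicate 1 lowest. Replicate 1 also had the lowest median depth (1905 UMIs per cell, against 2936, 2197 and 2786), and the part of depth in this order was not tested.

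**Figure D2:**
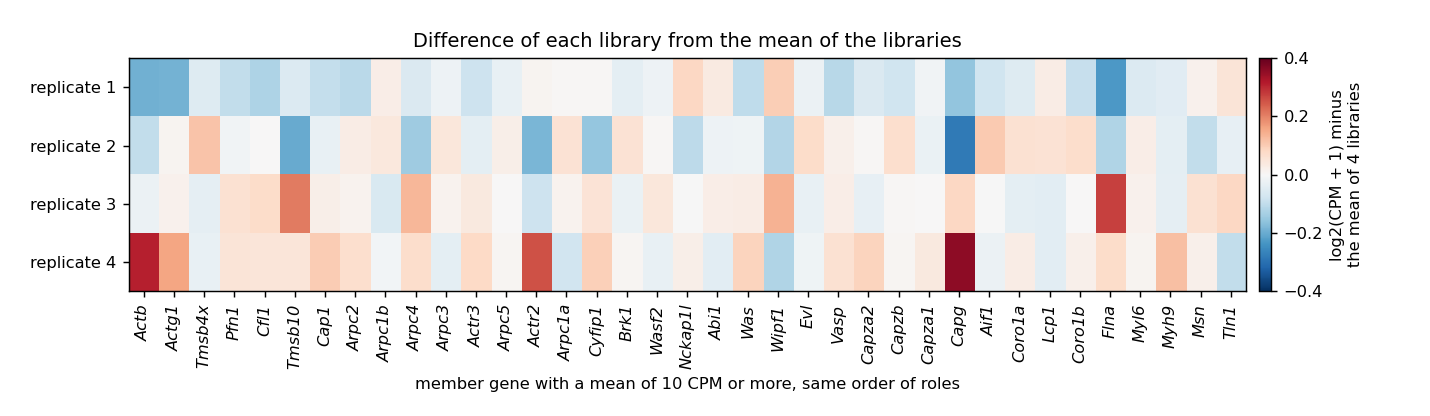
Heat map of log2(CPM + 1) in each library minus the mean of the 4 libraries, for the 37 members averaging 10 CPM or more, in the order of roles. Replicate 1 is blue in most members, and replicate 4 is red in Actb, Actr2 and Capg.

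The next question was how the members varied from cell to cell within a library. The 12737 cells with 1000 UMIs or more were thinned at random to 1000 UMIs each, so that depth no longer set the counts, and the excess CV was used, which is the variation left after the Poisson part is taken out (0 means no more than counting noise). Over the 29 members of 100 CPM or more the median excess CV was 0.25, against 0.26 over 1534 other genes of that level. Members with the least excess were Capzb (0.032), Capza2 (0.10), Arpc5 (0.12), Arpc4 (0.13) and Arpc2 (0.14). Their values were 0 in 1 or more libraries for all of these genes, so at this depth little variation beyond counting noise was detectable in them. The order was not stable, since in cells thinned to 2000 UMIs the lowest were Arpc4 (0.028), Arpc5 (0.058), Actr3 (0.060), Arpc3 (0.060) and Brk1 (0.068), with Capzb at 0.11 and Arpc2 at 0.19.

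The members with the most excess were Tmsb10, Actb, Nckap1l, Abi1 and Tln1. Nckap1l (0.47), Abi1 (0.45) and Tln1 (0.42) average under 0.15 UMIs a cell and vary with few counts. Tmsb10 had 1.58, 1.34, 1.87 and 1.06 in replicates 1 to 4, the 6th highest excess CV of all 1563 genes of this level, and 0.97 when cells marked by macrophage, monocyte, interferon or other state genes were left out. Tmsb4x, by contrast, had an even 0.22, 0.19, 0.22 and 0.22, and its median was 12, 14, 12 and 12 UMIs per 1000.

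Actb was the most variable of the abundant genes. Its excess CV was 0.44, 0.41, 0.66 and 0.70 in replicates 1 to 4, and the mean of 0.55 was the highest among the 119 genes of 1000 CPM or more, whose median was 0.28. The 25th percentile was 2 Actb UMIs per 1000 in every library. The median was 3, 3, 3 and 4 and the 75th percentile 5, 5, 5 and 7, so replicate 4 was higher at both. The upper tail differed, as the 95th percentile was 8, 8, 10 and 14 UMIs, and cells with 10 or more made up 2.80%, 3.11%, 5.90% and 14.5% of cells. Counted without thinning, cells with 1% or more of their UMIs from Actb made up 1.93%, 2.06%, 6.52% and 13.3%. The higher mean of replicate 4 thus came with a higher median and with a larger group of cells far above it.

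**Figure D3:**
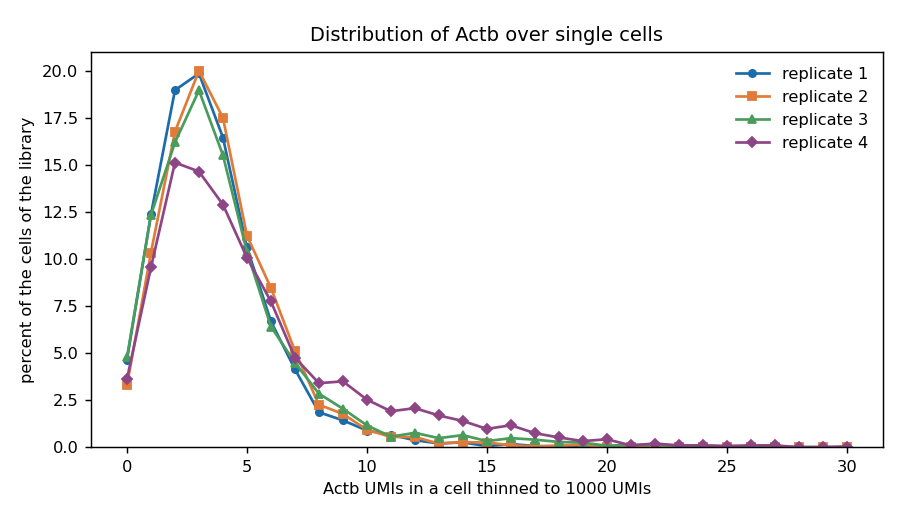
Percent of cells (vertical axis) by number of Actb UMIs in cells thinned to 1000 UMIs (horizontal axis), 1 line per library. The 4 lines peak at 2 or 3 UMIs, and replicate 4 has a shoulder between about 8 and 20 UMIs that is smaller in replicate 3.

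Other measures of the cells were set beside Actb over all cells of a library, not over the tail alone. The correlation of Actb with the summed immediate early genes was 0.029, -0.0027, 0.032 and -0.0024 in the 4 libraries, with mitochondrial genes it lay between -0.041 and 0.027, and with the UMIs of the cell before thinning between -0.023 and 0.11. With ribosomal protein genes it was 0.045, 0.053, 0.11 and 0.075, and with the microglial markers -0.055, -0.040, -0.10 and -0.097, farther from 0 in replicates 3 and 4 for both. Replicate 4 held 395 of the 503 cells marked by immediate early genes, and Actb had 5278 CPM in these and 5186 CPM in its reference cells, which are in no marked class. A further 771 cells of replicate 4 lay 1 UMI below the cut for that mark, and the part of the immediate early genes in the Actb level was not tested. The part of the repeated sort and its time at room temperature in these values and in the Actb tail was not tested either. The gene most correlated with Actb among the others of 100 CPM or more was Bmp2k, a kinase named for its induction by BMP2, with r of 0.071, 0.081, 0.17 and 0.24. Next came Tmsb4x (mean r 0.12), Dpysl2 (0.093), Ptafr (0.088) and Srsf2 (0.081), and Actg1 ranked only 34th (0.032). Bmp2k itself had 145, 137, 196 and 236 CPM, so replicates 3 and 4 were the high libraries for this gene as for the Actb tail. Actb, Actg1 and Bmp2k were compared in this way after their values were seen, the cells of a library share its depth and preparation, and correlations of this size in sparse counts are descriptions only.

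As a group the members co-varied weakly. In cells thinned to 1000 UMIs the 29 members had a median Pearson r of 0.041 with the sum of all other members (log2(UMI + 1), mean of the 4 libraries), and 1534 other genes had a median of 0.0024 with the summed members. The highest were Tmsb4x (0.20), Actb (0.13), Tmsb10 (0.10), Pfn1 (0.092), Cfl1 (0.086), Myl6 (0.074) and Actg1 (0.066), and r was above 0 in all 4 libraries for 19 of the 29 (30.3% of the other genes). The Arp2/3 subunits and the WAVE genes reached at most 0.057 and 0.041, and Lcp1 (-0.010) was lowest. In sparse counts such values are too small to be read as a finding about a single gene.

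**Figure D4:**
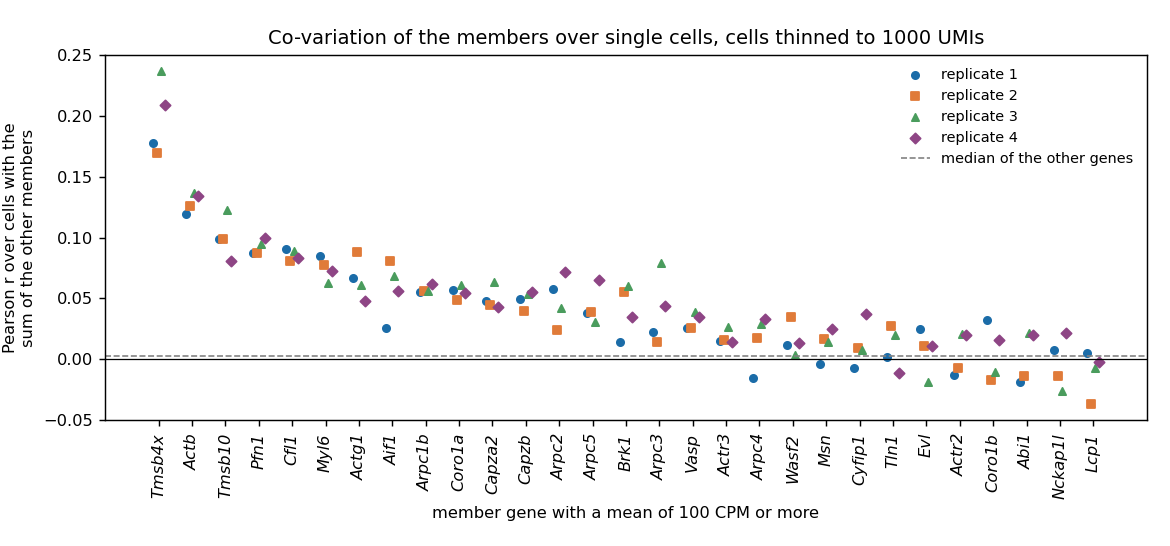
Pearson r over single cells of each member of 100 CPM or more with the sum of the other members (vertical axis), 1 symbol per library, sorted by the mean, with a dashed line at the median of the 1534 other genes. Tmsb4x and Actb lie above 0.1 in every library, and members from Arpc4 to the right lie near 0.

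The 6 member pairs with the highest mean r all held Tmsb4x, the deepest-counted member, paired with Actb (0.12), Tmsb10 (0.077), Pfn1 (0.073), Cfl1 (0.067), Myl6 (0.064) and Aif1 (0.060). Over all 406 pairs of members the median r was 0.0053. Outside the list, the genes with the highest mean r with the summed members were Rps29 (0.15), Eef1a1 (0.12), Fau (0.11), Rps27 (0.11), Rpl35a (0.10), Fth1 (0.098), Rpl10 (0.098), Rps4x (0.094), Rps9 (0.090) and Rpl35 (0.089), which all but Eef1a1 and Fth1 encode ribosomal proteins. Eef1a1 is a translation factor that also binds actin, and Fth1 is a ferritin chain.

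The summed members moved with the make-up of the cell's RNA. Their r with the summed ribosomal protein genes was 0.29, 0.28, 0.38 and 0.32, with the nuclear RNA Malat1 -0.28, -0.26, -0.28 and -0.29, and with the microglial markers -0.17, -0.12, -0.21 and -0.18. It was 0.11 on average with the 87 other actin regulators and near 0 with mitochondrial (0.014) and immediate early genes (0.0090). The r with the UMIs of the cell before thinning was 0.30, 0.25, 0.27 and 0.23, and the mean per 1000 UMIs went from 25.2, 28.0, 27.0 and 28.3 in the 25% of cells with the fewest UMIs to 30.7, 32.4, 32.1 and 33.5 in the 25% with the most. Shares of 1 total are tied to each other, and whether depth or RNA make-up set these relations was not tested.

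The last question was how the members differ across the cell states in these libraries. A cell was put in a class when its thinned counts of the class's markers reached a cut (2 UMIs for immediate early genes, 3 for the others), and it was compared with reference cells of the same library that were in no class. These classes are ranges of a count and not cell types, so 18 of the 58 macrophage or monocyte-marked, 26 of the 69 interferon-marked and 352 of the 503 immediate early-marked cells lay at the cut itself. UMIs were summed per library and class and tested with edgeR's quasi-likelihood test with the library as a block, over all genes except the class markers.

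In the macrophage or monocyte-marked cells 5 members were higher and none lower of the 40 tested (edgeR, adjusted p below 0.05), against 2.4% of 9503 genes higher and 2.21% lower. With the filter on low counts set by the reference cells alone, a setting chosen after seeing the data, 39 members were tested and 4 were called, all but Ezr, against 3.78% of 10238 genes in either direction. The 5 were Tmsb10, which holds monomers, and Ezr, Gsn, Flna and Capg, which are among the least abundant members. The median log2 fold change was 0.12 over the members and -0.33 over all genes. With 3 UMIs of 13 markers, the class held 11, 10, 10 and 27 cells in replicates 1 to 4, so small counts carry these results.

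Tmsb10 had 2654, 447, 1919 and 1744 CPM in the marked cells of replicates 1 to 4 and 187, 172, 221 and 194 CPM in the reference cells. The groups did not overlap and replicate 2 showed the smallest difference (log2 fold change 2.76 ± 0.30 SE, edgeR adjusted p = 5.0e-18). Tmsb4x, the abundant thymosin, had 20820, 15350, 15860 and 18100 CPM against 12980, 14580, 13150 and 13140 CPM, and its change did not pass the test (0.20 ± 0.41 SE, edgeR adjusted p = 0.88). The summed members took 46156, 31075, 37524 and 38085 CPM in the marked cells.

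The 4 other called members had few counts. Flna had 4, 2, 5 and 10 UMIs in the marked cells (138, 22.9, 94.1 and 96.9 CPM against 8.07 to 12.3 CPM in reference cells), with a log2 fold change of 2.85 ± 0.52 SE (edgeR adjusted p = 4.1e-06). Capg had 5, 3, 2 and 16 UMIs (172, 34.4, 37.6 and 155 CPM against 26.7, 24.5, 31.1 and 36.3 CPM), and replicates 2 and 3 were close to the reference cells (1.52 ± 0.41 SE, edgeR adjusted p = 0.0075). Gsn had 3, 3, 2 and 7 UMIs (log2 fold change 3.66 ± 0.64 SE, edgeR adjusted p = 1.1e-06). Ezr had 2, 1, 1 and 6 UMIs (4.51 ± 0.79 SE, edgeR adjusted p = 8.6e-07), against 1.17 to 1.78 CPM in reference cells. It passed the filter on low counts through the marked cells, where 1 UMI is 9.69 to 34.5 CPM, so its direction in each library was set once a UMI was seen. The direction of Gsn (mean 4.53 CPM over all cells) was set in the same way, and that of Flna nearly so. Tmsb10 and Capg also had a higher CPM in the marked than in the reference cells of every library, and Tmsb10 is the best measured.

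**Figure D5:**
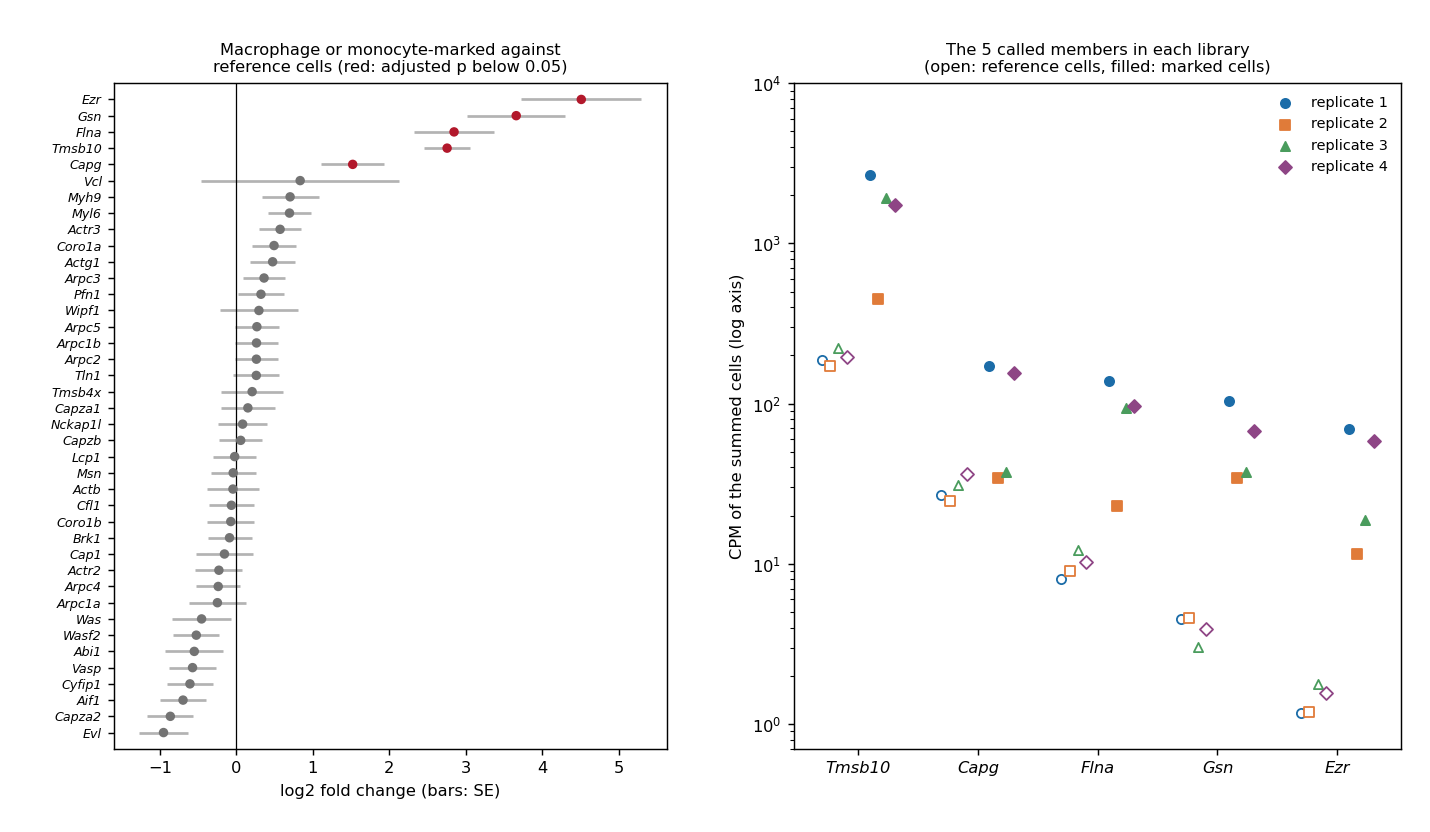
Left, log2 fold change with SE of all 40 members in macrophage or monocyte-marked against reference cells (edgeR), with the 5 called members in red. Right, CPM of these 5 (log axis) in each library, with open symbols for reference and filled symbols for marked cells, and every filled symbol lies above the open symbol of its library. For Ezr and Gsn any UMI seen in the marked cells sets this direction.

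The marked cells were not alike in the 4 libraries. The microglial markers summed to 3930, 19140, 15440 and 7656 CPM in them, against 25440 to 26420 CPM in reference cells, and MHC class II genes to 38810, 5305, 3950 and 33850 CPM, against 180 to 761 CPM. The marked cells of replicates 2 and 3 thus kept more microglial RNA, and those of replicate 2 had a median of 9796 UMIs, against 2940 in its reference cells. No doublet caller was run, and the part of droplets with more than 1 cell in this result was not tested. Without replicate 4, Flna, Gsn and Tmsb10 were called (1.81% of all genes), and without replicate 1, Ezr, Flna, Gsn and Tmsb10 (3.72%). With summed thinned UMIs Tmsb10 was the only member called higher, with Aif1, Capza2 and Cyfip1 lower, while Flna kept a log2 fold change of 2.66 (edgeR adjusted p = 0.051) and Gsn and Ezr were not among the 37 members tested. Of all 7812 genes tested with thinned UMIs, 56 were called higher and 375 lower, so most calls at this setting were downward. DESeq2 called Tmsb10 higher and Capza2 lower, and gave Gsn (3.61), Flna (2.79) and Ezr (4.44) no adjusted p. Of all 9503 genes DESeq2 called 118 higher and 186 lower. Under edgeR, Evl (-0.95 ± 0.31 SE, adjusted p = 0.051), Capza2 (-0.87 ± 0.30 SE, adjusted p = 0.073) and Aif1 (-0.70 ± 0.30 SE, adjusted p = 0.21) did not pass.

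Other actin regulators outside the list were read for context, 74 of 87 passing the filter on low counts. In the macrophage or monocyte-marked cells 7 of the 74 rose and 4 fell, against 2.4% of 9503 genes higher and 2.21% lower. The 6 called with the largest differences on the log2 scale were the vesicle motor Myo5a (4.30), the scaffold Iqgap1 (3.47), the protease Capn2 (2.51), the MARCKS relative Marcksl1 (2.33), the tropomyosin Tpm4 (2.25) and the leukocyte actin binder Lsp1 (2.00). Myo5a, Iqgap1 and Capn2 averaged only 3.92, 7.73 and 4.75 CPM over the libraries, so any UMI seen in the marked cells sets their direction. Myo5a passed the filter on low counts in this class alone, through the marked cells. The 4 that fell, named after their values were seen, were the bundler Fscn1 (fascin, -1.86), the small GTPase Rhob (-1.57), Abi3 (-1.22) and Elmo1 (-1.03), an engulfment protein. Fscn1 also fell in the interferon-marked cells (-0.77) and Marcksl1 rose there (1.66), the only 2 of 73 regulators called in that class. Of all 9403 genes tested there 1.05% rose and 1.03% fell.

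In the interferon-marked cells (26, 20, 12 and 11 cells in replicates 1 to 4) no member was higher and 2 were lower of the 38 tested, against 1.05% of 9403 genes higher and 1.03% lower. Tmsb4x had 12330, 13230, 11760 and 12030 CPM in the marked cells and 12980, 14580, 13150 and 13140 CPM in the reference cells, lower in every library (log2 fold change -0.42 ± 0.10 SE, edgeR adjusted p = 0.0065). Tln1 had 2, 6, 5 and 0 UMIs, at most 179 CPM, against 160, 150, 163 and 145 CPM (-1.28 ± 0.38 SE, edgeR adjusted p = 0.037), and replicate 3 went the other way. The marked cells again differed between libraries. MHC class II genes summed to 243, 49.5, 11220 and 11920 CPM in them, against 180 to 761 CPM in reference cells, and the microglial markers to 23670, 23460, 20010 and 19850 CPM, against 25440 to 26420 CPM, and their part in this result was not tested. The calls were not stable. Tmsb4x lost its call with any 1 replicate left out (edgeR adjusted p from 0.10 to 0.22) and without the library block (0.10), and was called in 6 of 13 alternatives (adjusted p from 0.00058 to 0.91). TMM put the median of all genes at -0.36, and with library totals, where that median was -0.097, Tmsb4x was at -0.12 with an edgeR adjusted p of 0.91 and Tln1 at -1.01 with 0.32, while Capza2 (0.45) was called higher. Relative to the median of all genes Tmsb4x differed by little under either scaling.

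In the immediate early-marked cells edgeR called none of the 38 members tested, against 0.0821% of 9740 genes higher and 0% lower. DESeq2 called 0 members and 0.0103% of all genes. An unadjusted edgeR p under 0.05 was found for 1 of the 38 members and 266 of the 9740 genes. The class held 32, 58, 18 and 395 cells, and its summed members took 29452, 31427, 29557 and 30789 CPM, against 28605, 31059, 29838 and 31173 CPM in reference cells. The members' median log2 fold change was -0.088 and that of all genes -0.043. Actb had 4295, 3945, 3855 and 5278 CPM against 3667, 3931, 4072 and 5186 CPM, higher in 3 of 4 libraries and lower in replicate 3.

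The other classes were too small for a test, with 32 chemokine-marked cells (Ccl3 and Ccl4), 13 marked by Lpl, Cst7 and related genes, and 2 proliferating cells, since fewer than 3 libraries had 10 cells. In the chemokine-marked cells the members summed to 29018, 26981, 28466 and 30809 CPM, which overlaps the reference cells. In the Lpl and Cst7-marked cells they summed to 27178, 25105, 30067 and 41865 CPM, and the last value came from 1 cell.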

How the data were processed

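Per the labels and the study's methods, the authors demultiplexed the reads with bcl2fastq and made the deposited UMI counts per gene and barcode with Cell Ranger 2.2.0 on mm10 (GRCm38). Seurat is also named in the processing notes. Cells with fewer than 400 genes or over 10% mitochondrial UMIs were left out. Counts were summed per library and scaled to CPM, on log2(CPM + 1), with Dixon's range test (two-sided) over genes averaging 10 CPM or more, and exact 95% Poisson intervals, which cover counting error only. Class sums were tested with edgeR 4.0.16 (filterByExpr, TMM, quasi-likelihood, library block, Benjamini-Hochberg over all genes tested, called at 0.05), and DESeq2 1.42.0 was an alternative. The block pairs the 2 sums of a mouse. Positions are GENCODE M21. Co-variation and excess CV were computed in Python 3.11.15 with numpy 2.4.6. The edgeR fit, the range test, the excess CV and a correlation with the sum of the others were tested on simulated data. The thinning, the class marking and the promoter search were not. Nothing called doublets.

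The members and lists were chosen with earlier results of these data known. Named were the 10 highest members, those with 1 library apart, those called per class, the 5 with most and least excess CV, the 6 best pairs, the 10 best other genes and up to 6 called other regulators, with at least 1 member of every role. Clec7a, of the Lpl and Cst7 class, was not found, so 6 of its 7 genes were used. One microglial marker is not reported here and was left out of the marker sums.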

Additional observations from a re-analysis of the deposited data

Results flagged for a closer look

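In 5 values 1 library lay far from the other 3 by Dixon's range test, which chance alone does in about 1 in 20 sets of values. The test was run on the 37 members and also on ratios of related genes, shares of the top cells, excess CVs and class counts. Chance alone thus gives some such values. Tmsb4x was high in replicate 2 with 14560 CPM, Evl was high in replicate 2 with 311 CPM and Myh9 was high in replicate 4 with 61.7 CPM. The other pair concerned the cell classes and not the members, since replicate 4 held the most macrophage or monocyte-marked cells (27, against 10 or 11) and the most immediate early-marked cells (395, against 18 to 58). The part of the repeated sort in the values of replicate 4 was not tested.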

How the results depend on the processing

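Of the 81 comparisons of a summary value with an alternative setting, 63 were counted as the same. The cause of the others was not tested. The rule was a value within the spread or a count within 1.5 times the main count. For the summed level under other scalings or cells it was an unchanged call of the range test. In immediate early-marked cells, where the main count was 0, only 0 counted as the same. The number of members called in macrophage or monocyte-marked cells (5) was 2 with DESeq2, which gave 3 of the 5 no adjusted p, 9 without the replicate block, which pairs the 2 sums of a mouse, and 3 to 6 when each replicate was left out, with 3 without replicate 4. In interferon-marked cells (2) it was 5 with DESeq2 size factors in edgeR, 4 with DESeq2, 1 with classes cut at 2000 UMIs, 1 without the replicate block, 1 with an absolute log2 fold change above 0.58 and 0 to 1 when each replicate was left out, and 1 with library totals in edgeR, a setting chosen after seeing the data. The share of all genes called moved as well. In macrophage or monocyte-marked cells it was 4.61% in the main fit, 3.2% with DESeq2, 6.82% without the block and 1.81% without replicate 4. In interferon-marked cells it was 2.08% in the main fit, 3.15% with DESeq2 size factors and 2.07% with DESeq2. It was 1.46% at 2000 UMIs, 2.14% without the block and 1.88% with the 0.58 cut. With each replicate left out it was 1.08% to 1.51%, and with library totals 1.5%. The block changed no call in immediate early-marked cells, where every setting gave 0. Capg in macrophage or monocyte-marked cells turned to -0.39 when thinned UMIs were summed, while Tmsb10 was called in all 13 alternatives with log2 fold changes from 2.47 to 3.18.

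The median SD of the members (0.075) lay between 0.059 and 0.085 with each replicate left out. The median excess CV (0.25) was 0.20 in cells thinned to 2000 UMIs, and 0.21 to 0.26 with each replicate left out. Co-variation of the members (0.041) lay between 0.035 and 0.045 in all alternatives.

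Of 112 such comparisons of single members, 79 kept their side of the threshold, 26 lost it, 6 gained it and 1, that of Capg, turned.

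The class cut 1 UMI higher was not run for any class, since too few libraries then had 10 cells. No class test was run for the chemokine, Lpl and Cst7, and proliferating classes, and the range test was not repeated with 3 libraries. Depth limits members with few counts, among them Ezr, Gsn, Vcl and Flna, which had the lowest mean CPM of the members. In the macrophage or monocyte-marked cells Ezr, Gsn and Flna had 10 UMIs or fewer in every library.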

Other observations

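Actb had a tail of high cells that was small in replicates 1 and 2 and larger in replicates 3 and 4, with the 5% of cells that had the most Actb holding 14.7%, 14.3%, 18.2% and 17.1% of its UMIs. In Actg1 the same share was 22.2%, 21.8%, 21.2% and 20.1%, but at its mean of 0.69 to 0.86 UMIs per cell this share is mostly counting noise and says nothing of a tail.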
